A study of Mus musculus with 7 samples.

Results

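The 8 genes described here encode RNA-binding proteins that set how long cytokine mRNAs last: Zfp36, Zfp36l1, Zfp36l2, Zc3h12a, Zc3h12c, Rc3h1, Rc3h2 and Elavl1. They were taken by symbol from the deposited expression table, in which all 8 were found among 17920 genes. RNA was sequenced from the spleen of mice labelled C57BL/6 and aged 8 weeks, all of which had received lipopolysaccharide (LPS), a bacterial cell wall component, by intraperitoneal injection. The dose was 20 mg per kg of body weight, and the organ was collected 90 min or 6 h later. The labels name splenocytes as the source but spleen as the tissue, and the protocol describes crushing the organ with no step that separates cells, so the material is called spleen here. There were 2 wild-type and 2 GdX-/- libraries from 90 min, and 2 wild-type libraries and a single GdX-/- library from 6 h. The genotype is written GdX-/- in the sample labels and UBL4A/GdX-/Y in the series title. GdX is the ubiquitin-like protein encoded by the X-linked gene Ubl4a, and how its allele was made is not given in the sources used here. The 4 wild-type and 3 GdX-/- libraries equal in number the mice of the design text. Resting spleen was not analysed here, and every comparison is therefore between injected mice.

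Inflammatory mRNAs are often short-lived because proteins bound to their 3′ untranslated regions (UTRs) recruit the decay machinery. ZFP36 (tristetraprolin) and its relatives ZFP36L1 and ZFP36L2 bind AU-rich elements and bring in the CCR4-NOT deadenylase, whereas HuR, the product of Elavl1, binds similar elements and mostly stabilises the mRNA. Regnase-1, the product of Zc3h12a, is an endonuclease that cuts stem-loops in transcripts such as Il6, and Regnase-3 (Zc3h12c) is its relative. Roquin-1 and Roquin-2 (Rc3h1 and Rc3h2) bind stem-loops as well and recruit deadenylation and decapping factors. In macrophages LPS induces Zfp36 and Zc3h12a along with the cytokines whose mRNAs they shorten, and the ZFP36 protein also acts on its own mRNA.

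The preferred site of the ZFP36 family is the nonamer UUAUUUAUU, which holds the AUUUA pentamer. Read as TTATTTATT on the mRNA-sense strand of GENCODE M21 3′ UTRs (build GRCm38), it was present in 6 of the 8 members. By comparison, 6.77% of the 20195 mouse genes with an annotated 3′ UTR held it. Zfp36, Zfp36l1, Zfp36l2, Rc3h1 and Rc3h2 had 1 copy each and Elavl1 had 8, while Zc3h12a and Zc3h12c had 0. A longer UTR has more chances to hold a short motif: the members' 3′ UTRs ran from 774 bases in Zfp36 to 7181 bases in Rc3h1, against a median of 828 bases over all genes. The site of each ZFP36 family member and the densest site of Elavl1 are shown beside that of Tnf, the classical ZFP36 target, because the mRNAs of these regulators hold the same letters as the cytokine mRNA. Nonamers are in capitals, and each run is given 5′ to 3′ as DNA of the mRNA-sense strand.
Zfp36, chr7:28376951-28376979, minus strand: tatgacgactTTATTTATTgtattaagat
Zfp36l1, chr12:80108167-80108195, minus strand: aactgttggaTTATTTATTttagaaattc
Zfp36l2, chr17:84184914-84184942, minus strand: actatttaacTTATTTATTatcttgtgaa
Elavl1, chr8:4285782-4285810, minus strand: aaaaTTATTTATTTATTTATTTATTttta
Tnf, chr17:35199678-35199707, minus strand: TTATTTATTATTTATTTATTATTTATTTAT
In the Elavl1 site 4 nonamers overlap. The Tnf run is the first 30 bases of a longer stretch that holds all 5 nonamers of that UTR, and its last nonamer runs past the printed end. A match describes the sequence only. No binding or decay rate was measured here.

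Every member was read from at least about 110 fragments in each library. FPKM stands for fragments per kilobase of transcript and unit of mapped fragments, and its low values step by what 1 fragment is worth, which put the depth between about 19400000 and 21600000 mapped fragments per library. At that depth Zfp36 rested on about 7120 to 24290 fragments per library, and the least abundant member, Zc3h12c, on about 110 to 290. On the log2(FPKM + 1) scale, replicates differed by at least 2-fold at 674 of 11378 tested genes in the GdX-/- pair at 90 min, at 997 in the wild-type pair at 6 h and at 140 in the wild-type pair at 90 min. Among the members the same count was 2 (Zfp36 and Zc3h12a), 3 (Zfp36l1, Zfp36l2 and Zc3h12a) and 0, and in FPKM itself the wild-type pair at 6 h also differed 2.02-fold for Zc3h12c. The targeted gene itself read only partly lower: Ubl4a stood at 4.03 and 5.69 FPKM in the GdX-/- libraries at 90 min against 5.62 and 7.50 in wild type, and at 10.6 at 6 h against 11.9 and 14.0. Gm44504, an entry that overlaps Ubl4a, separated the genotypes, with 0.66 to 1.86 FPKM in the 3 GdX-/- libraries and 14.5 to 51.1 in the 4 wild-type ones. All 10 defining markers of B cells and all 10 of T cells were present in every library.

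**Figure D1:**
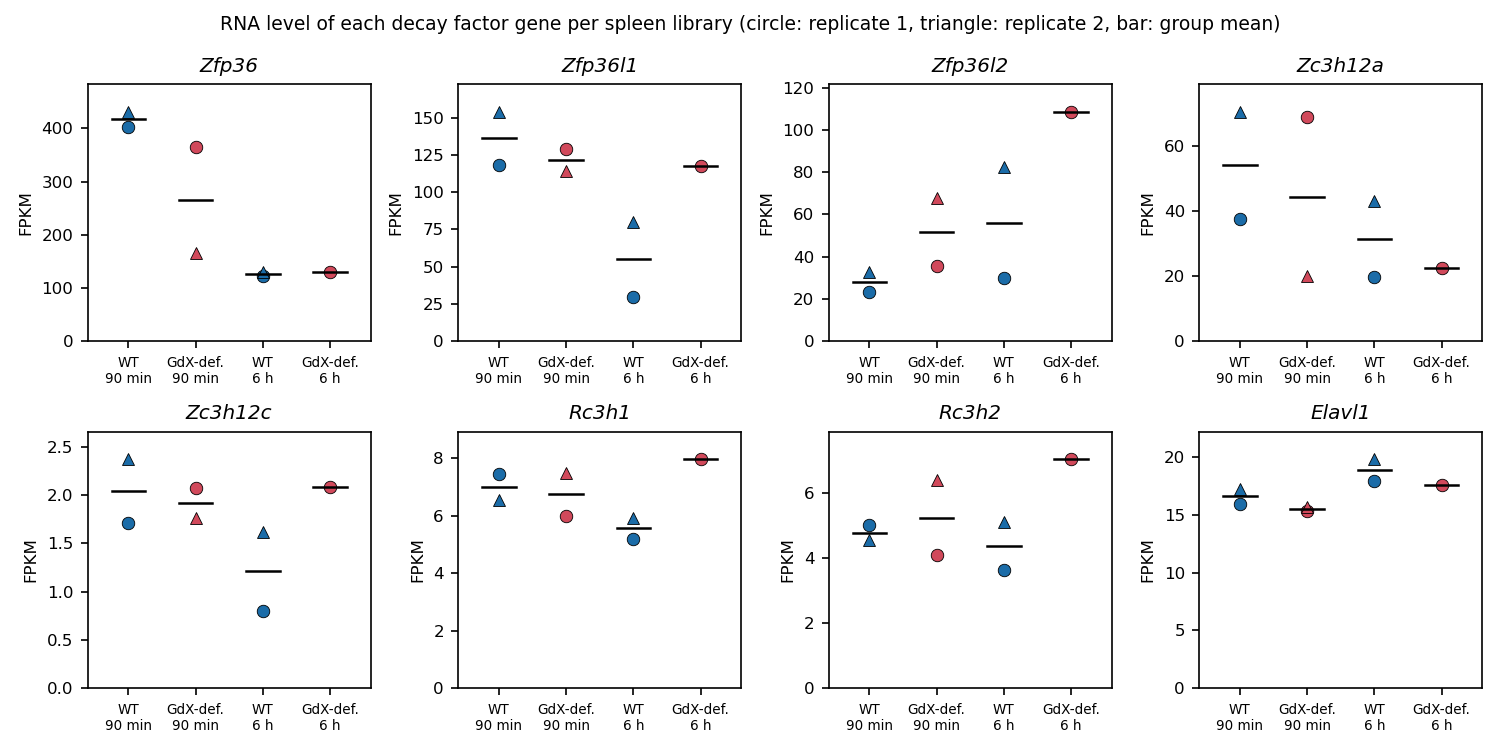
FPKM of the 8 members in the 7 libraries, 1 panel per gene with its own axis from 0; circles are replicate 1, triangles replicate 2, bars the group mean, blue wild type and red GdX-/-. Zfp36 is high in both wild-type libraries at 90 min and low in all 3 libraries at 6 h, and the 2 replicates lie far apart for Zfp36 in GdX-/- spleen at 90 min and for Zfp36l1 and Zfp36l2 in wild type at 6 h.

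Zfp36 (Entrez gene 22695, 7:28376784-28380253) was the most abundant member in all 7 libraries, and the only one whose level changed with time past the threshold. It stood at 404 and 431 FPKM in wild type at 90 min, 366 and 166 FPKM in GdX-/- spleen at 90 min, 123 and 130.1 FPKM in wild type at 6 h and 129.6 FPKM in the 6 h GdX-/- library. Both wild-type libraries at 90 min lay above every other library, and the 3 libraries at 6 h lay within a narrow band whatever their genotype. In wild type Zfp36 fell by 1.71 between 90 min and 6 h on the log2(FPKM + 1) scale (SE 0.35, 95% interval -2.50 to -0.92, limma adjusted p = 0.0183). That leaves 0.305 of the 90 min level, and both 6 h libraries were lower than both 90 min ones. The call was kept under every alternative except the test of all 17920 genes without a filter on low values (limma adjusted p = 0.0774). In bulk spleen, fewer cells that express a gene and less of its RNA per cell cannot be told apart.

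The genotype difference in Zfp36 did not pass the threshold at either time. At 90 min the GdX-/- libraries averaged 266 ± 141 FPKM against 417 ± 19.4 FPKM in wild type (SD, n = 2 each). Both GdX-/- libraries were lower than both wild-type ones, but they differed 2.21-fold from each other. The log2 difference was -0.76 (SE 0.35, 95% interval -1.55 to 0.03, limma adjusted p = 0.621). It ran from -1.33 without replicate 1 of the GdX-/- group to -0.19 without replicate 2. At 6 h the difference was 0.03 (95% interval -0.94 to 1.01, limma adjusted p = 0.967), and the GdX-/- library lay between the wild-type ones. The difference between the 2 genotype effects was 0.79 (SE 0.56, limma adjusted p = 0.734).

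Over the 7 libraries the genes whose log2(FPKM + 1) followed Zfp36 most closely, out of 6963 ranked, were Egr1 (Pearson r = 0.994), Ppp1r15a (r = 0.990) and Bcl2l1 (r = 0.988). Egr1 encodes an immediate early transcription factor, Ppp1r15a the GADD34 phosphatase subunit and Bcl2l1 the survival protein Bcl-xL. Egr1 stood at 52.3 and 58.1 FPKM in wild type at 90 min, at 43.5 and 13.8 FPKM in the GdX-/- libraries at 90 min, and between 11.2 and 12.9 FPKM in the 3 libraries at 6 h. The shared feature is thus a high level in 3 libraries and a low level in the other 4, with replicate 2 of the GdX-/- 90 min group among the low ones. Such a correlation describes these 7 libraries, and nothing was tested with it.

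The 300-base RefSeq promoter window of Zfp36 (GRCm38.p6, chr7:28379179-28379478, minus strand), which runs from 250 bases before the start site to 50 after it, was searched on both strands for 7 motifs. Of these, 3 were found: the EGR1 site GCGNGGGCG as GCGGGGGCG at -105, the CArG box of the serum response factor as CCATAAAAGG at -58, and the STAT element TTCNNNGAA as TTCTGCGAA at -17. Among 32851 mouse promoter windows of the same length these motifs occurred in 5.55%, 1.63% and 8.30%. The AP-1 site TGANTCA (7.81% of windows), the cyclic AMP element TGACGTCA (1.79%), the TATA box TATAAA (13.6%) and the NF-kB site (8.46%) were not among the letters of that window. Promoter windows were found for 7 of the 8 members, all but Zfp36l2. In the others the matches were an AP-1 site in Rc3h1 and in Zfp36l1, a TATA box in Zfp36l1 and an NF-kB site in Zc3h12c. Such matches are descriptions of letters, and the libraries hold no measure of binding.

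Zfp36l1 (Entrez gene 12192, 12:80107754-80113013), which acts on AU-rich mRNAs in developing and activated lymphocytes, was highest in a wild-type library at 90 min and lowest in one at 6 h. Its levels were 118 and 154 FPKM in wild type at 90 min, 129 and 114 FPKM in GdX-/- spleen at 90 min, 29.8 and 80.2 FPKM in wild type at 6 h, and 118 FPKM in the 6 h GdX-/- library. Both wild-type libraries at 6 h were thus below the other 5, and replicate 1 was far below replicate 2. The wild-type difference between 6 h and 90 min was -1.44 (SE 0.41, 95% interval -2.36 to -0.53), which missed the threshold (limma adjusted p = 0.0528). It passed without replicate 2 of wild type at 6 h (-2.14, limma adjusted p = 4.34e-05), without replicate 1 of wild type at 90 min (-1.63, limma adjusted p = 0.0377) and with the replicate block (limma adjusted p = 0.0276). It was -0.74 without replicate 1 of wild type at 6 h, so 1 library decides its size.

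In GdX-/- spleen the level of Zfp36l1 at 6 h was within the range of the 90 min pair, with a log2 difference of -0.04 (SE 0.50, 95% interval -1.17 to 1.08, limma adjusted p = 0.982). At 6 h the GdX-/- library was 2.37-fold above the wild-type mean on the fitted scale (log2 difference 1.25, SE 0.50, 95% interval 0.12 to 2.37, limma adjusted p = 0.143). This value rests on 1 GdX-/- library, which the test assumes to vary like the other groups. Without replicate 1 of the wild-type pair it was 0.55, and without replicate 2 it was 1.95. With the replicate block it passed the threshold (1.51, limma adjusted p = 0.0403), but that fit called 3383 genes rather than 450. The genotype difference at 6 h minus that at 90 min was 1.40 (SE 0.64, 95% interval -0.05 to 2.85, limma adjusted p = 0.525), past the threshold without replicate 2 of wild type at 6 h (2.10, limma adjusted p = 0.0113). At 90 min the genotype difference was -0.15 (SE 0.41, limma adjusted p = 0.892), and it changed sign with quantile normalization and with globin genes left out. The closest genes in pattern were Rasgef1b and Pde4b (Pearson r = 0.991 each) and Il6st (r = 0.985). Pde4b encodes a cyclic AMP phosphodiesterase and Il6st the gp130 subunit shared by IL-6 family receptors.

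Zfp36l2 (Entrez gene 12193, 17:84183931-84187947), known for its part in lymphocyte development and in erythroid progenitors, was the family member whose mean was higher at 6 h than at 90 min in both genotypes. Its levels were 23.1 and 32.8 FPKM in wild type at 90 min, 35.7 and 67.5 FPKM in GdX-/- spleen at 90 min, 29.9 and 82.2 FPKM in wild type at 6 h, and 108 FPKM in the 6 h GdX-/- library. Every GdX-/- library was above both wild-type libraries of its time, but the wild-type pair at 6 h differed 2.75-fold and overlapped the pair at 90 min. With time as a covariate the genotype difference was 0.93 (SE 0.35, 95% interval 0.16 to 1.70), with an unadjusted limma p of 0.0219 and an adjusted p of 0.133. This was the only member with an unadjusted p under 0.05 in that comparison. It was 0.81 at 90 min (SE 0.47, limma adjusted p = 0.626) and 1.11 at 6 h (SE 0.57, limma adjusted p = 0.234).

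The genotype difference of Zfp36l2 at 6 h moved from 0.40 without replicate 1 to 1.83 without replicate 2 of wild type. With the replicate block it passed the threshold (1.58, limma adjusted p = 0.0160), but that fit called 3383 genes rather than 450. Between 90 min and 6 h the difference was 0.83 in wild type (SE 0.47, 95% interval -0.22 to 1.88, limma adjusted p = 0.277) and 1.13 in GdX-/- spleen (SE 0.57, 95% interval -0.16 to 2.42, limma adjusted p = 0.708). The wild-type one was 1.54 without replicate 1 of the 6 h pair (limma adjusted p = 0.00560) and 0.11 without replicate 2 (limma adjusted p = 0.872). The genes closest in pattern were Mapk9, which encodes the kinase JNK2 (Pearson r = 0.997), the anaphase-promoting complex gene Cdc23 (r = 0.996) and the phosphoinositide kinase gene Pip5k1c (r = 0.994). Mapk9 stood at 13.7 FPKM in the 6 h GdX-/- library and at 5.10 and 6.79 FPKM in wild type at 90 min, so it shared both ends of the order of Zfp36l2.

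**Figure D2:**
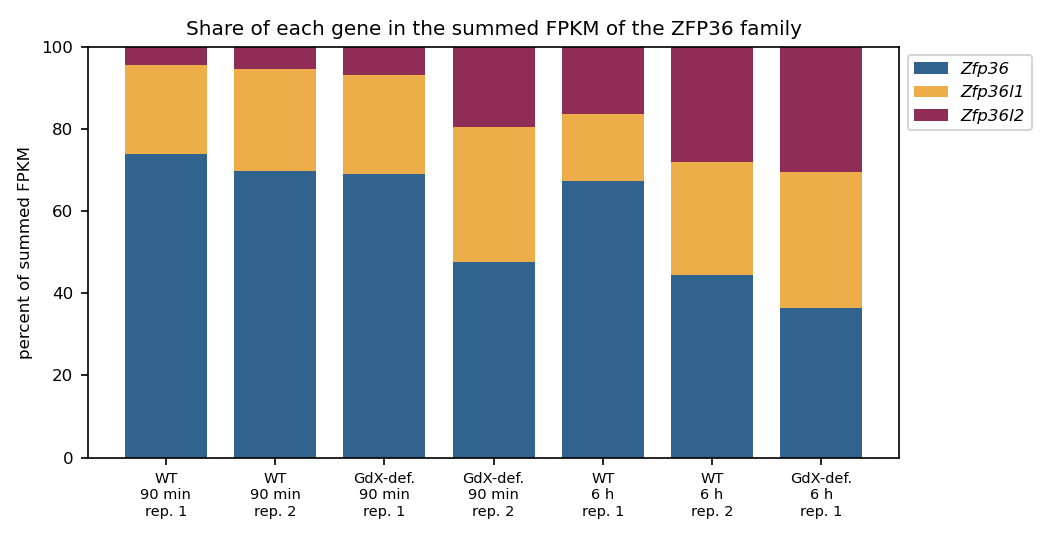
Share of the summed FPKM of Zfp36, Zfp36l1 and Zfp36l2 that each gene takes, in percent, stacked for each of the 7 libraries (GdX-def. for GdX-/-). Zfp36 takes between 69.0% and 74.0% in 3 of the 4 libraries at 90 min and 36.4% in the 6 h GdX-/- library, where the 3 genes have nearly equal shares.

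Both the total and the makeup of the ZFP36 family differed from library to library. Together the 3 genes summed to 545 and 617 FPKM in wild type at 90 min, to 530.1 and 347 FPKM in GdX-/- spleen at 90 min, to 183 and 293 FPKM in wild type at 6 h and to 356 FPKM in the 6 h GdX-/- library. Zfp36 made up 74.0% and 69.8% of that sum in wild type at 90 min, 69.0% and 47.7% in the GdX-/- pair, 67.4% and 44.5% in wild type at 6 h and 36.4% in the 6 h GdX-/- library. Replicate 2 of the GdX-/- 90 min group thus had a share like that of replicate 2 of wild type at 6 h. The share of Zfp36l2 moved the other way, from 4.24% and 5.30% in wild type at 90 min to 30.5% in the 6 h GdX-/- library. Zfp36 exceeded Zfp36l2 17.4-fold and 13.2-fold in the wild-type pair at 90 min, 10.2-fold and 2.45-fold in the GdX-/- pair, 4.12-fold and 1.58-fold in wild type at 6 h, and 1.19-fold in the 6 h GdX-/- library. At 6 h Zfp36l1 and Zfp36l2 were nearly equal in each of the 3 libraries, with ratios of 0.996 and 0.976 in wild type and 1.08 in GdX-/- spleen, against 5.12 and 4.69 in wild type and 3.61 and 1.69 in the GdX-/- pair at 90 min. A ratio within a library does not depend on how the library was scaled, though it shows only that the genes changed unequally.

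Zc3h12a (Entrez gene 230738, 4:125118423-125127840), which encodes Regnase-1, varied more between replicates than between groups. It stood at 37.6 and 70.5 FPKM in wild type at 90 min, 69.0 and 19.9 FPKM in GdX-/- spleen at 90 min, 19.6 and 43.1 FPKM in wild type at 6 h and 22.4 FPKM in the 6 h GdX-/- library. The 4 groups overlapped in each of the 4 pairwise comparisons of time and genotype. The wild-type time difference was -0.80 (SE 0.57, 95% interval -2.09 to 0.48, limma adjusted p = 0.390) and the genotype difference at 90 min was -0.46 (SE 0.57, limma adjusted p = 0.757). Leaving out replicate 1 or 2 of the GdX-/- 90 min group moved the second between -1.33 and 0.41, so the sign rests on 1 library. The time difference was -1.35 without replicate 2 of wild type at 6 h (limma adjusted p = 0.0438), -0.25 without replicate 1 (limma adjusted p = 0.751) and -0.36 without the second wild-type replicate at 90 min (limma adjusted p = 0.795). The genes closest in pattern were Icam1 (Pearson r = 0.983), an adhesion molecule gene, Kdm6b (r = 0.982), which encodes the histone demethylase JMJD3, and Slamf1 (r = 0.979). Kdm6b stood at 70.5 and 17.9 FPKM in the same 2 GdX-/- libraries, the same split as for Zc3h12a.

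Zc3h12c (Entrez gene 244871, 9:52111344-52168572), the gene of Regnase-3, was the least abundant member in all 7 libraries. It stood at 1.71 and 2.37 FPKM in wild type at 90 min, 2.07 and 1.76 FPKM in GdX-/- spleen at 90 min, 0.80 and 1.62 FPKM in wild type at 6 h, and 2.08 FPKM in the 6 h GdX-/- library. Replicate 1 of wild type at 6 h was the only library below 1 FPKM. The wild-type time difference was -0.48 (SE 0.28, 95% interval -1.11 to 0.16, limma adjusted p = 0.298), and at this level the log2(FPKM + 1) scale understates a change. At 6 h the genotype difference was 0.50 (SE 0.34, limma adjusted p = 0.356), and it became -0.06 with quantile normalization. Zc3h12a exceeded Zc3h12c in FPKM by between 10.8-fold and 33.3-fold. Those ends were the 6 h GdX-/- library and replicate 1 of the GdX-/- 90 min group.

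The Roquin genes were expressed at similar, low levels that moved little. Rc3h1 (Entrez gene 381305, 1:160906418-160974978, plus strand) stood at 7.43 and 6.54 FPKM in wild type at 90 min, 6.00 and 7.49 FPKM in GdX-/- spleen at 90 min, 5.20 and 5.91 FPKM in wild type at 6 h, and 7.96 FPKM in the 6 h GdX-/- library. Rc3h2 (Entrez gene 319817, 2:37370069-37422903) stood at 5.02 and 4.56 FPKM in wild type at 90 min, 4.09 and 6.42 FPKM in GdX-/- spleen at 90 min, 3.65 and 5.13 FPKM in wild type at 6 h, and 7.05 FPKM in the 6 h GdX-/- library. Both were highest in the 6 h GdX-/- library and lowest in replicate 1 of wild type at 6 h. The highest level was 1.53 times the lowest for Rc3h1 and 1.93 times for Rc3h2, and Rc3h1 made up between 53.0% and 59.7% of their sum in every library. At 6 h the genotype difference was 0.45 for Rc3h1 (SE 0.35, limma adjusted p = 0.413) and 0.59 for Rc3h2 (SE 0.39, limma adjusted p = 0.336), near the median of 0.32 over all 11378 genes. Leaving out globin genes moved that median to 0.55. With quantile normalization, which moved it to -0.02, the Rc3h1 difference was -0.06. The wild-type time differences were -0.28 for Rc3h1 (95% interval -0.93 to 0.37, limma adjusted p = 0.562) and -0.12 for Rc3h2 (95% interval -0.83 to 0.60, limma adjusted p = 0.845).

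Elavl1 (Entrez gene 15568, 8:4285382-4325413), the gene of the stabilising protein HuR, had the narrowest range of the 8. It stood at 15.9 and 17.2 FPKM in wild type at 90 min, 15.3 and 15.7 FPKM in GdX-/- spleen at 90 min, 17.9 and 19.8 FPKM in wild type at 6 h, and 17.5 FPKM in the 6 h GdX-/- library. Its highest level was 1.29 times its lowest. Although the groups did not overlap in any of the 4 pairwise comparisons, the differences were small: 0.17 for time in wild type (SE 0.26, 95% interval -0.40 to 0.76, limma adjusted p = 0.705) and -0.09 for genotype at 90 min (SE 0.26, limma adjusted p = 0.899). With globin genes left out the genotype difference at 90 min was 0.11 and that at 6 h was 0.17, against -0.10 at 6 h with them.

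**Figure D3:**
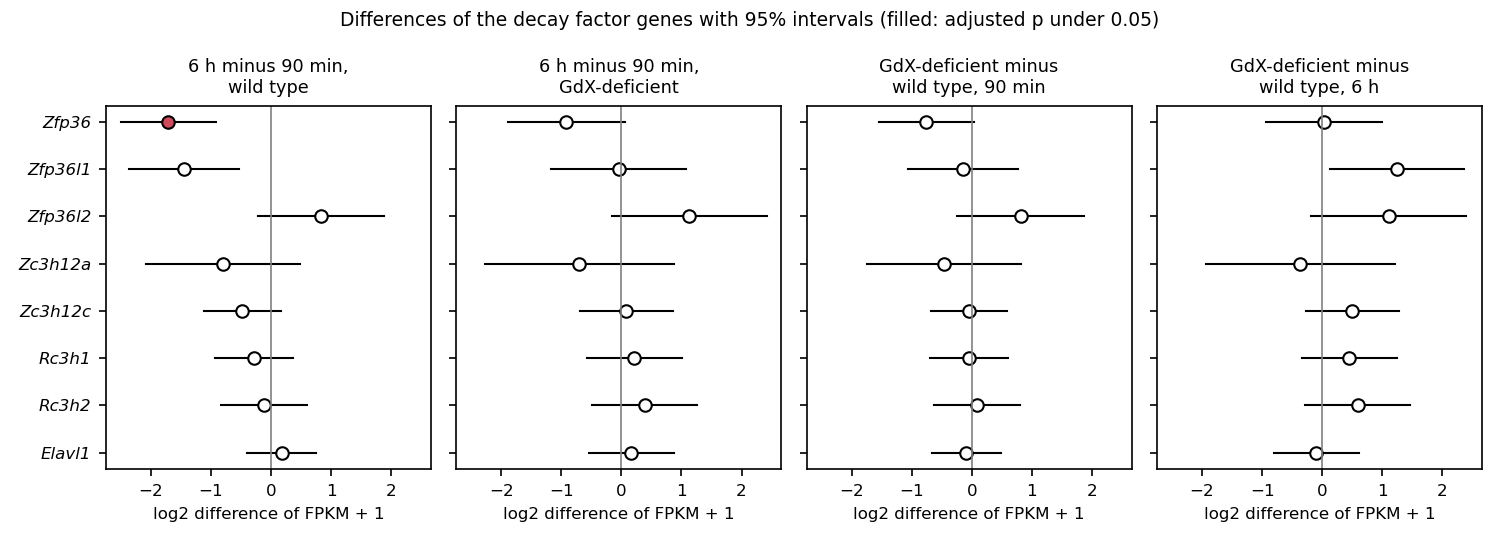
Log2 differences of the 8 members with 95% intervals from limma, on the log2(FPKM + 1) scale, in the comparisons of genotype at 90 min and at 6 h and of time in wild type and in GdX-/- spleen; a filled point is past the adjusted threshold of 0.05. Zfp36 between the times in wild type is the only filled point, at -1.71.

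Across the members, time in wild type was the comparison with a call: 1 of 8 passed, Zfp36, while 10.7% of the 11378 tested genes did, 4.39% higher and 6.32% lower at 6 h. In that comparison 2 of 8 members, Zfp36 and Zfp36l1, had an unadjusted p under 0.05, as did 28.7% of all genes, and the median member difference was -0.38 against 0.05 over all genes. Limma called 0 of 8 members by genotype at 90 min, where it called 0.0176% of genes. There 0 members had an unadjusted p under 0.05, against 7.58% of all genes. With time as a covariate it called 0 members and 0.0439% of genes, with 1 member, Zfp36l2, at an unadjusted p under 0.05 against 27% of all genes. At 6 h it called 0 members by genotype and 3.96% of genes (2.91% higher and 1.05% lower in GdX-/- spleen), with 1 member, Zfp36l1, at an unadjusted p under 0.05 against 28.4% of all genes. For time in GdX-/- spleen it called 0 members and 0% of genes, and for the interaction 0 members and 0.0703% of genes. In either, 0 members had an unadjusted p under 0.05, against 8% and 9.98% of all genes. The last 3 comparisons rest on the single 6 h GdX-/- library, and the comparisons of time in wild type and of genotype at 6 h share both wild-type libraries at 6 h.

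Groups that do not overlap were common in so few libraries. At 90 min 3 members had no overlap between genotypes, 1 higher (Zfp36l2) and 2 lower (Zfp36 and Elavl1) in GdX-/- spleen, and the same held for 47.5% of genes, 24.1% higher and 23.4% lower. At 6 h 6 members had none, 5 higher and 1 lower, and 80.3% of genes, 54.9% higher and 25.3% lower. Between the times 5 members were apart in wild type, 1 higher and 4 lower at 6 h, against 57.9% of genes, 30.3% higher and 27.6% lower. In GdX-/- spleen 6 were apart, 5 higher and 1 lower, against 72.6% of genes, 56.8% higher and 15.8% lower. In total these counts are near the background, and nothing is read from their directions. The GdX-/- time and 6 h genotype comparisons share the same single library.

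By level, the order within wild type at 90 min was Zfp36, Zfp36l1, Zc3h12a, Zfp36l2, Elavl1, Rc3h1, Rc3h2 and Zc3h12c, with no overlap between neighbours. In GdX-/- spleen at 90 min the ranges of Zfp36l2 and Zc3h12a overlapped, as did those of Rc3h1 and Rc3h2. In wild type at 6 h Zfp36 stayed on top, and the ranges of Zfp36l2, Zfp36l1, Zc3h12a and Elavl1 overlapped from neighbour to neighbour. The 6 h GdX-/- library gave the order Zfp36, Zfp36l1, Zfp36l2, Zc3h12a, Elavl1, Rc3h1, Rc3h2 and Zc3h12c. FPKM is per length of transcript, so the levels of different genes may be set side by side, with a limit. Differences between replicates followed transcript length in both wild-type pairs (Spearman rho -0.589 at 6 h and -0.445 at 90 min, over genes, which are not independent). The members' transcripts ran from 2755 bases in Zc3h12a to 11006 bases in Rc3h1, and the part of length in their levels was not tested. By mean level Zfp36 was in the top 1.53% of all listed genes, Zfp36l1 in the top 4.27%, Zfp36l2 in the top 8.55% and Zc3h12a in the top 11.5%, while Zc3h12c was at 58.1%.

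Cell type markers differed along with these levels. The summed FPKM of the 10 B cell markers was 2037 and 1982 in wild type at 90 min, 655 and 729 in wild type at 6 h, and 2364 in the 6 h GdX-/- library. Macrophage and monocyte markers summed to 757 and 856 in wild type at 90 min, 402 and 424 in wild type at 6 h, and 825 in the 6 h GdX-/- library. Erythroid markers summed to 603 and 685 and then to 188 and 262 in wild type, with 10 of 10 genes called lower, and to 686 in the 6 h GdX-/- library. Both wild-type libraries at 6 h were thus low in the markers of all 3 cell types. In wild type 5 of 10 B cell, 5 of 10 T cell and 5 of 10 macrophage and monocyte markers were called lower at 6 h. So were 4 of 10 endothelial and stromal markers. Neutrophil markers summed to 4752 in replicate 2 of the GdX-/- 90 min group, the library with the low Zfp36, against 1003 in its replicate 1 and 693 and 1082 in wild type at 90 min. At 6 h they summed to 2633 in the GdX-/- library and to 1072 and 753 in wild type. At 90 min erythroid markers were higher in GdX-/- spleen, with sums of 1329 and 1150. Endothelial and stromal markers summed there to 96.5 and 88.8, against 277 and 180.0 in wild type, with 9 of 10 below 0 and a median difference of -0.83, and limma called 0 of either list at 90 min. By genotype at 6 h it called higher in the GdX-/- library 9 of 10 erythroid, 4 of 10 B cell, 3 of 10 macrophage and monocyte and 2 of 10 T cell markers. The part of these markers in the differences of the members and of the target transcripts below was not tested. Pancreas markers, which would show carry-over of the neighbouring organ, summed to no more than 8.74 FPKM.

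The proteins that the members recruit or compete with were described from lists, given as counts of genes past the threshold beside the median log2 difference. For time in wild type the median over all genes was 0.05, with 4.39% of genes called higher, 6.32% called lower, 53.1% above 0 and 46.9% below 0, which are the shares to set beside each list. Of 18 CCR4-NOT and other deadenylation genes tested, 0 rose and 2 fell, against 10.7% of all genes called in either direction: Btg2 (-2.24, SE 0.23, limma adjusted p = 0.00131) and Btg1 (-1.16, SE 0.26, limma adjusted p = 0.0244), with a median of 0.20 for the list. Btg1 lost its call without the first wild-type replicate at 90 min (limma adjusted p = 0.223) and without the filter on low values (0.0576). Btg1 and Btg2 encode small antiproliferative proteins that bind the deadenylase. Btg2 stood at 112 and 113 FPKM in wild type at 90 min and 22.9 and 23.2 FPKM at 6 h, while the GdX-/- libraries stood at 91.3 and 85.1 FPKM at 90 min and 77.8 FPKM at 6 h. The genotype difference of Btg2 at 6 h was 1.71 (SE 0.28, limma adjusted p = 0.0219), and it was the only gene of the list called there, where 2.91% of all genes were called higher. The list count was highest without the second wild-type replicate at 6 h, where more of all genes were called as well. B cell marker sums were also lowest in the wild-type pair at 6 h, and their part in the Btg2 values was not tested.

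Of 15 exosome and SKI complex genes, which degrade mRNA from the 3′ end, 14 had a difference above 0 between the times in wild type (53.1% of all genes) and 2 rose past the threshold (4.39% of all genes), with a median of 0.71. The count of 2 fell without either wild-type 90 min library and rose without the second wild-type replicate at 6 h, as did the count over all genes. Across genes, the difference between replicates followed transcript length in both wild-type pairs (Spearman rho -0.589 at 6 h and -0.445 at 90 min, over genes, which are not independent), and its part in the values of this list was not tested. Exosc5 stood at 53.7 and 48.9 FPKM in wild type at 90 min and 157 and 96.3 FPKM at 6 h (log2 difference 1.25, SE 0.28, limma adjusted p = 0.0254). Exosc7 stood at 28.3 and 24.4 FPKM and then at 68.1 and 51.4 FPKM (1.14, SE 0.27, limma adjusted p = 0.0279). In the 6 h GdX-/- library they were at 52.0 and 24.2 FPKM, near the 90 min levels. With time as a covariate 13 of the 15 genes were below 0 by genotype (37.8% of all genes), with a median of -0.56 against 0.16 over all genes, 0 called by limma and 10 at an unadjusted p under 0.05, against 27% of all genes. Without the first GdX-/- replicate at 90 min limma called more of this list by genotype, and more of all genes as well. Both calls were lost when either wild-type 90 min library or replicate 1 of wild type at 6 h was left out (limma adjusted p from 0.0669 to 0.199) and without the filter on low values, and that of Exosc7 also with globin genes left out (0.0633).

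In the list of 19 decapping and 5′ decay genes 1 rose in wild type, a share near the 4.39% of all genes: Lsm2, from 36.4 and 40.4 FPKM to 101 and 73.5 FPKM (log2 difference 1.15, SE 0.26, limma adjusted p = 0.0257), and 0 fell. Among 13 other RNA-binding proteins 1 rose, Hnrnpd, which encodes the AU-rich element binding protein AUF1, from 19.3 and 24.8 FPKM to 43.0 and 54.9 FPKM (1.11, SE 0.28, limma adjusted p = 0.0350). Both lost their call when either wild-type 90 min library was left out, Lsm2 also without the first and Hnrnpd without the second wild-type replicate at 6 h, and both did so with globin genes left out or without the filter on low values, and Hnrnpd with quantile normalization. With 1 library left out the counts of both lists moved, as did the count over all genes. Arid5a, which protects Il6 mRNA from Regnase-1, stood at 60.3 and 88.9 FPKM in wild type at 90 min and at 24.5 and 35.1 FPKM at 6 h, a difference of -1.29 (SE 0.37, limma adjusted p = 0.0551). It passed without either GdX-/- library at 90 min, without the second wild-type replicate at 6 h or without the first at 90 min (limma adjusted p from 0.00522 to 0.0493), with the replicate block (0.0450) and in a fit of only the libraries compared (0.0476).

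Among the 13 kinases, phosphatases and proteases that act on the members, limma called 0 in wild type between the times, with 1 at an unadjusted p under 0.05 against 28.7% of all genes, and 0 by genotype with time as a covariate, with 4 at an unadjusted p under 0.05 against 27% of all genes. The second count was highest without the first GdX-/- replicate at 90 min, where more of all genes were called as well. Mapkapk2 encodes MK2, the kinase that inactivates ZFP36, and stood between 62.7 and 124 FPKM over the 7 libraries (genotype difference 0.02, limma adjusted p = 0.968). Mapk14, the gene of the p38α kinase that activates MK2, stood at 10.2 and 14.9 FPKM in wild type at 90 min, 13.5 and 33.1 FPKM in GdX-/- spleen at 90 min, 7.23 and 13.7 FPKM in wild type at 6 h, and 36.4 FPKM in the 6 h GdX-/- library. Its genotype difference was 1.15 (SE 0.36, limma adjusted p = 0.111). It ran from 0.73 without the 6 h GdX-/- library to 1.56 without replicate 1 of the GdX-/- 90 min group. Malt1 encodes the protease that cleaves Regnase-1 and the Roquins, and had a genotype difference of 0.78 (SE 0.30, limma adjusted p = 0.141). For Dusp1, the phosphatase gene that switches p38 off, it was -0.75 (limma adjusted p = 0.230), and -0.23 and -1.15 without replicate 2 or 1 of the GdX-/- 90 min group, with 114 and 31.4 FPKM in the GdX-/- pair at 90 min.

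**Figure D4:**
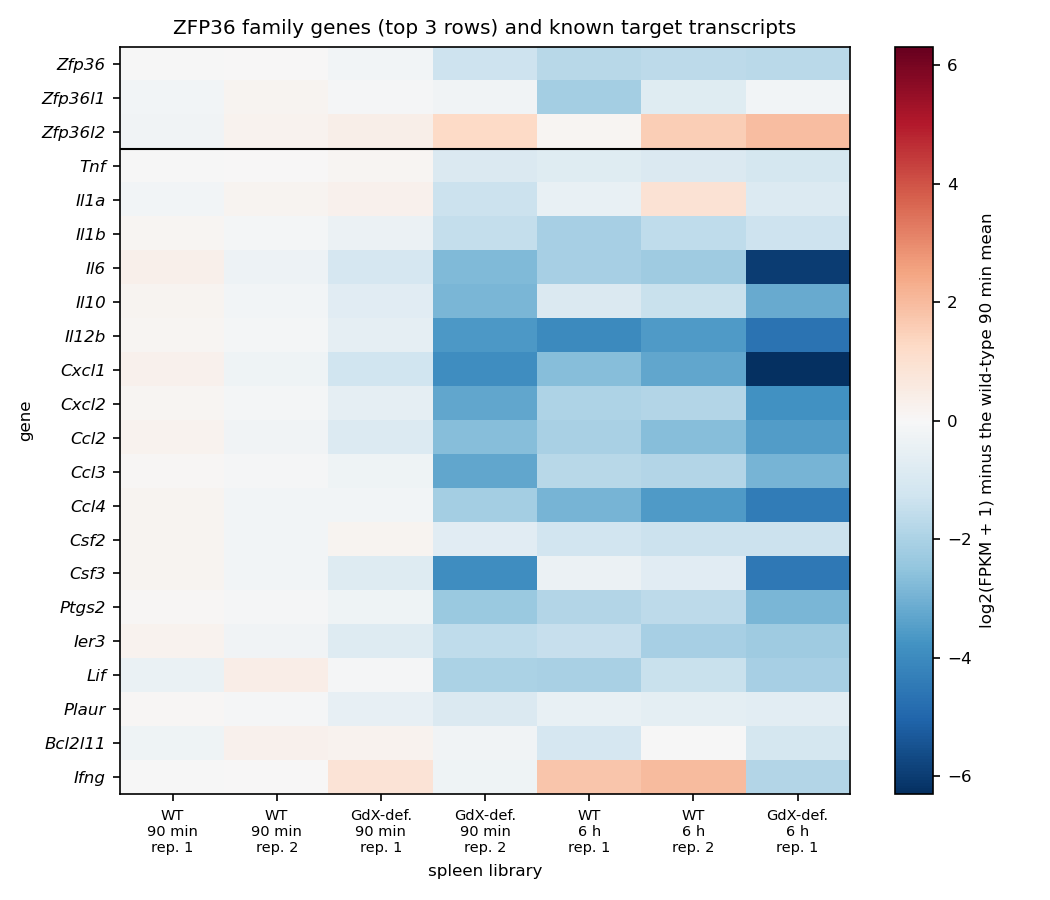
Heat map of log2(FPKM + 1) minus the wild-type mean at 90 min for the 3 ZFP36 family genes and the 19 tested ZFP36 target transcripts (rows) in the 7 libraries (columns, GdX-def. for GdX-/-); blue is lower and red higher. Most target rows are blue in the 3 libraries at 6 h and in replicate 2 of the GdX-/- group at 90 min, most are a paler blue in its replicate 1, Ifng is red in wild type at 6 h, and Zfp36l2 is red in the 6 h GdX-/- library.

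Transcripts known as ZFP36 targets were mostly highest at 90 min, when Zfp36 was highest too. Of 19 tested, 8 fell and 1 rose between 90 min and 6 h in wild type, 17 were below 0 and the median was -1.75, while 6.32% of all genes fell, 4.39% rose and 46.9% were below 0. Ccl4, a chemokine gene, fell from 1088 and 878 FPKM to 128 and 82.7 FPKM (log2 difference -3.24, SE 0.54, limma adjusted p = 0.00873), Il12b from 62.1 and 52.8 FPKM to 2.65 and 3.83 FPKM (-3.79, SE 0.77, limma adjusted p = 0.0170), and the stress gene Ier3 from 112 and 80.0 FPKM to 34.2 and 21.6 FPKM (-1.76, SE 0.35, limma adjusted p = 0.0163). The inflammatory cytokine genes Il1b (-1.84, SE 0.37, limma adjusted p = 0.0175) and Il6 (-2.15, SE 0.49, limma adjusted p = 0.0254) fell too. Ifng was the gene that rose, from 9.53 and 10.1 FPKM to 35.8 and 42.3 FPKM (1.89, SE 0.38, limma adjusted p = 0.0167). Each of these 6 calls was lost without the filter on low values (limma adjusted p from 0.0692 to 0.112), and that of Ier3 also without the first wild-type replicate at 90 min (0.0532).

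Tnf, the target whose nonamers are printed above, stood at 59.6 and 62.7 FPKM in wild type at 90 min, 67.5 and 32.6 FPKM in GdX-/- spleen at 90 min, 35.9 and 31.8 FPKM in wild type at 6 h, and 27.9 FPKM in the 6 h GdX-/- library. Both wild-type libraries at 6 h were lower than both at 90 min, but the difference of -0.84 (SE 0.34, limma adjusted p = 0.141) did not pass. In GdX-/- spleen at 90 min Tnf split between the replicates as Zfp36 did. Il10 went from 23.4 and 18.4 FPKM to 10.7 and 7.33 FPKM in wild type (-1.14, SE 0.59, limma adjusted p = 0.234). Its 3′ UTR, like those of Il6, Il1b and Il12b, held 0 nonamers but from 4 to 6 copies of ATTTA.

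By genotype with time as a covariate, 19 of 19 ZFP36 targets had a difference below 0, as did 37.8% of all genes, with a median of -1.24 against 0.16 over all genes. Limma called 0 of them, and 11 had an unadjusted p under 0.05, against 27% of all genes. All 19 stayed below 0 with quantile normalization and with globin genes left out, and 17 did without replicate 2 of the GdX-/- 90 min group. Without replicate 1 of that group limma called more of the targets, and more of all genes as well. Il6 stood at 185 and 120.3 FPKM in wild type and 72.2 and 20.98 FPKM in GdX-/- spleen at 90 min, and at 34.7 and 31.1 FPKM in wild type and 1.35 FPKM in the 6 h GdX-/- library. Its genotype difference was -2.68 (SE 0.46, limma adjusted p = 0.0915), and at 6 h alone it was -3.85 (SE 0.60, limma adjusted p = 0.0174). Ifng, at 1.99 FPKM in the GdX-/- library, was the other target called lower at 6 h (-3.74, SE 0.46, limma adjusted p = 0.00820). Those 2 of 19 compare with 1.05% of all genes called lower. Without the filter on low values neither passed (limma adjusted p = 0.0869 for Il6 and 0.0548 for Ifng). Leaving out any 1 library other than that of the GdX-/- group at 6 h raised the count, and it raised the count over all genes as well. In the 6 h GdX-/- library Zfp36 was at the wild-type level and Zfp36l1 and Zfp36l2 were at 118 and 108 FPKM. A link between these levels and those of the targets was not tested.

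Of the 13 tested targets of Regnase-1 or Roquin, 3 fell and 1 rose in wild type between the times (6.32% and 4.39% of all genes), with a median of -1.33. The number of calls was highest without the second wild-type replicate at 6 h, where more of all genes were called as well. Besides Il6 and Il12b, Nfkbiz, which encodes the regulator IκBζ, fell from 220.2 and 256 FPKM to 45.9 and 76.5 FPKM (-1.98, SE 0.55, limma adjusted p = 0.0499), a call at the edge of the threshold that 6 of the alternatives ended, among them the fit without the 6 h GdX-/- library. Lcn2, the gene of the iron-binding protein lipocalin 2, rose from 103 and 118 FPKM to 476 and 629 FPKM (2.30, SE 0.26, limma adjusted p = 0.00197). Icos, the T cell costimulator gene through which Roquin-1 became known, stood between 4.02 and 7.11 FPKM in all libraries (-0.50 in wild type between the times, limma adjusted p = 0.281; -0.11 by genotype, limma adjusted p = 0.761). By genotype with time as a covariate 11 of the 13 were below 0 (37.8% of all genes), with a median of -0.72. Limma called 0, with 6 at an unadjusted p under 0.05 against 27% of all genes. Without the first GdX-/- replicate at 90 min it called more of this list, and more of all genes as well. Il10, outside that list, had a genotype difference of -1.90 (SE 0.43, limma adjusted p = 0.101), Il12b of -1.59 (SE 0.58, limma adjusted p = 0.129), Il1b of -0.34 (limma adjusted p = 0.542) and Tnf of -0.33 (limma adjusted p = 0.409). Without the first GdX-/- replicate at 90 min the difference was -3.31 for Il6, -2.47 for Il10 and -2.24 for Il12b. It was -3.03 for Il6 and -2.01 for Il10 without the second wild-type replicate at 90 min. Without the second GdX-/- replicate at 90 min the difference shrank to -0.70 for Il12b and -0.06 for Tnf and was 0.09 for Il1b.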

How the data were processed

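The authors deposited FPKM with 2 decimals in 1 column for each library, per the file headers. The submitters' processing notes name HISAT, HISAT2 2.0.4, Bowtie2 and RSEM and the build GRCm38.p5, without roles. The protocol names oligo dT selection or rRNA depletion, not which was used, before BGISEQ-500 sequencing. The members and lists were chosen with earlier results of these data known. Genes named are the members, 5 regulators, 6 targets and at most 3 called genes per list and direction. Values were tested as log2(FPKM + 1) where the mean FPKM reached 1, which kept 11378 genes and all 8 members. The test was limma 3.58.1 in R 4.3.3 (trended empirical Bayes, two-sided, Benjamini-Hochberg over all genes, threshold 0.05). All 7 libraries entered 1 fit of 4 groups, and a second with genotype and time as terms. Fold changes are on that scale, which understates low genes. Globin genes took 7.73% to 30.9% of a library's summed FPKM. The test was also run on simulated data with independent noise for each gene, which cannot show how shifts shared across genes act. Other pseudocounts, filters and normalizations, a replicate block and each library left out were tried.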

Additional observations from a re-analysis of the deposited data

How the results depend on the processing

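The fall of Zfp36 in wild type kept its direction in every alternative run (-1.83 to -1.67) and its call in all but 1 (limma adjusted p from 0.0013 to 0.0774). Without the filter on low values, the members called for time in wild type went from 1 to 0, and the genes called from 1218 to 635; that setting called 90 genes rather than 450 by genotype at 6 h, 22 rather than 0 for time in GdX-/- spleen and 3 rather than 8 for the interaction. With a mean FPKM of at least 5 the 6 h count was 233 and the interaction count 0, and with a pseudocount of 0.1 the interaction count was 0. Fitting only the libraries compared gave 181 genes rather than 2 by genotype at 90 min, 885 at 6 h and 251 for time in GdX-/- spleen; it gives no value for the interaction or the covariate fit.

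Scaling moved the small differences across 0. With quantile normalization the genotype difference at 90 min was 0.036 for Zfp36l1 and -0.093 for Rc3h2, that with time as a covariate -0.12 for Zc3h12c, -0.15 for Rc3h1 and -0.036 for Rc3h2, and that at 6 h -0.055 for Zc3h12c and -0.06 for Rc3h1. Time in GdX-/- spleen became -0.19 for Zc3h12c, -0.10 for Rc3h1 and -0.08 for Elavl1, and the interaction -0.057 for Zc3h12a. That setting called 270 genes by genotype at 6 h (166 higher and 104 lower, against 331 and 119) and 4 for the interaction. With globin genes left out the genotype difference at 90 min was 0.055 for Zfp36l1, 0.083 for Zc3h12c, 0.14 for Rc3h1 and 0.11 for Elavl1, that with time as a covariate 0.13 for Elavl1 and 0.085 for Icos, that at 6 h 0.17 for Elavl1, and the interaction 0.058 for Elavl1. The counts were then 0 by genotype at 90 min, 2 with time as a covariate, 248 at 6 h (209 higher and 39 lower), 700 for time in wild type (191 higher and 509 lower, against 499 and 719) and 0 for the interaction. The median of all genes with time as a covariate, 0.16, became -0.01 with quantile normalization and 0.36 with globin genes left out, and that for time in GdX-/- spleen, 0.25, became 0.02 with quantile normalization.

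Equal replicate numbers do not mark shared mice or days in the labels. The correlation of same-numbered libraries' deviations was 0.77 between the wild-type groups, 0.08 between GdX-/- at 90 min and wild type at 6 h, and -0.12 between the 90 min groups. The main fit has no block because the labels name no pairing. The 2 low values involve the GdX-/- group, so they cannot settle whether the wild-type time comparison is paired. There Zfp36l1 passed with the block (limma adjusted p = 0.0276) and not without it (0.0528). With the replicate block limma called 12 genes with time as a covariate, 3383 by genotype at 6 h, 2345 for time in wild type, 37 for time in GdX-/- spleen and 80 for the interaction, and 2 members each by genotype at 6 h and for time in wild type. The block gave -0.13 for Zfp36 by genotype at 6 h, 0.22 for Zfp36l1 for time in GdX-/- spleen and 0.038 for Elavl1 for the interaction.

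Leaving out 1 library at a time gave 2 to 183 genes by genotype at 90 min, 2 to 1674 with time as a covariate (the highest without replicate 1 of GdX-/- at 90 min), 627 to 3035 at 6 h, 450 to 1774 for time in wild type, 0 to 236 for time in GdX-/- spleen and 0 to 238 for the interaction; 3035, 1774, 236, 238 and 183 were all without the second wild-type replicate at 6 h, and 450 without the first at 90 min. Members called ran from 0 to 2 by genotype at 6 h, 1 to 3 for time in wild type and 0 to 1 for the interaction. Signs changed, by genotype at 90 min, for Zfp36l1 (-0.34 to 0.035), Zc3h12a (-1.33 to 0.41), Zc3h12c (-0.21 to 0.10), Rc3h1 (-0.19 to 0.091) and Rc3h2 (-0.18 to 0.36). With time as a covariate they changed for Zfp36l1 (-0.15 to 0.64), Zc3h12a (-0.85 to 0.025), Zc3h12c (-0.054 to 0.30), Rc3h1 (-0.048 to 0.27), Mapkapk2 (-0.17 to 0.18) and Il1b (-0.95 to 0.089). At 6 h they did for Zfp36 (-0.006 to 0.073) and Zc3h12a (-0.91 to 0.19), for time in wild type for Rc3h2 (-0.32 to 0.083), Malt1 (-1.02 to 0.12) and Mapk14 (-0.70 to 0.14), for time in GdX-/- spleen for Zfp36l1 (-0.13 to 0.042) and Zc3h12a (-1.58 to 0.17), and for the interaction for Zfp36l2 (-0.42 to 1.01), Zc3h12a (-0.78 to 0.97) and Elavl1 (-0.076 to 0.06). Genotype at 6 h, time in GdX-/- spleen and the interaction have no value without the only 6 h GdX-/- library. The fit with time as a covariate does. The causes of these shifts were not tested. Over the members, 570 of the 626 values recomputed kept direction and call, 45 changed sign, 10 gained a call and 1 lost it.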
